A study of Mus musculus with 9 samples.

Results

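Iron-sulfur cluster assembly in mitochondria was followed through 9 genes, Iscu, Nfs1, Isca1, Isca2, Glrx5, Bola3, Nfu1, Hscb and Lyrm4, taken by symbol from the 16509 genes of an expression table of MC38 cells. All 9 were among the 11949 genes kept by the filter on low counts. MC38 is a mouse colon carcinoma line, and its RNA was sequenced in 9 libraries, 3 in each of 3 groups. Ctrl cells received vehicle, which the sample labels give as DMSO and the study's text as PBS. Cu-Cys cells received a copolymer of copper and cystine. Cadict cells received a nanodrug built, per the study's methods, from the same copper and cystine with glucose oxidase and a peptide that targets the receptor EGFR. The dose and time behind the sequenced RNA are not given in the sources used here. The study describes its replicates in general as biological, but no source says how the cultures behind these libraries were kept apart. The p-values therefore measure the spread between these libraries, part of which may be technical. In the main fit that spread is shared by the 3 groups, although Cadict replicate 2 differed most from its own group. Its SEs and p-values thus need not match the spread within Cadict libraries.

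Iron-sulfur clusters are cofactors that carry electrons or hold enzymes in shape, and mitochondria build them in steps. The desulfurase Nfs1, held stable by its small partner Lyrm4, takes sulfur from cysteine, and the cluster forms on the scaffold Iscu. The co-chaperone Hscb and the chaperone Hspa9 then release it to the carrier Glrx5, Isca1 and Isca2 work in making the larger, cubane-type clusters, and Nfu1 and Bola3 hand these to enzymes such as lipoyl synthase (Lias). Copper excess is known to damage iron-sulfur proteins and, in cuproptosis, to act on proteins that carry lipoic acid, and cystine is the oxidised form of the amino acid that supplies the sulfur.

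The total expected count was 17905769 to 18293060 per library, but the same depth was spent differently. The 10 most abundant genes held 4.72 to 4.83% of counts in Ctrl, 5.05 to 5.24% in Cu-Cys and 10.7 to 11.2% in Cadict libraries. TMM scaling, which sets libraries to each other through the bulk of the genes, gave factors of 1.26 to 1.27 in Ctrl, 1.21 in Cu-Cys and 0.640 to 0.665 in Cadict libraries. Replacing it by library totals moved the median log2 fold change of all genes tested by -0.95 for Cadict against Ctrl and by -0.88 for Cadict against Cu-Cys, and DESeq2 size factors moved the first by 0.12, so the calls of named genes in the comparisons with Cadict are given with library totals too. Of the 6 colon epithelial markers measured, Epcam had 0 counts in all Ctrl and Cu-Cys libraries and 0 to 4 in Cadict, and Krt18 at most 2 in any library. Cdh1 had 99 to 120 counts in Ctrl, 65 to 71 in Cu-Cys and 145 to 152 in Cadict libraries, and Krt19 had 19 to 33, 14 to 21 and 119 to 131 in the same order. The 6 markers summed to 5.32 to 6.83 TMM-scaled CPM, read counts set relative to library size, in Ctrl, 3.97 to 4.38 in Cu-Cys and 24.0 to 26.1 in Cadict libraries. The 3 fibroblast markers, led by Col1a2, summed to 617 to 644 CPM in Ctrl, 340 to 348 in Cu-Cys and 132 to 144 in Cadict libraries. The 3 leukocyte markers measured stayed within 0.228 to 0.872 CPM and the 2 endothelial markers within 0.732 to 2.44 CPM. The part of these shifts in the results below was not tested.

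Per length, in TPM, the 9 genes spanned 12.5 to 103 in Ctrl libraries. Nfu1 was the highest at 103 ± 3.44 (SD, n = 3), followed by Glrx5 at 72.2 ± 4.22. Iscu at 52.9 ± 1.03, Isca2 at 50.02 ± 0.512 and Isca1 at 48.4 ± 3.27 lay close together, and the libraries of Isca2 and Isca1 overlapped. Below them came Nfs1 at 38.6 ± 1.75, Bola3 at 17.0 ± 1.77, Hscb at 13.8 ± 1.32 and Lyrm4 at 12.5 ± 0.319 TPM, the last 2 with overlapping libraries. The desulfurase and its scaffold thus ranked below the late carrier Nfu1 and the glutaredoxin Glrx5. In Cu-Cys libraries Glrx5 and Nfu1 could not be ordered, at 85.6 ± 3.81 and 85.5 ± 4.96 TPM. In Cadict libraries Nfu1 led again at 74.0 ± 6.41 TPM, and Isca2 at 11.8 ± 1.06 overlapped Nfs1 at 10.6 ± 2.01.

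The make-up of the set changed, while the direction of its summed level in Cadict libraries depended on the scaling, as given below. A gene's share of the set's summed TPM does not depend on how libraries are scaled to each other. Nfu1 held 25.2% ± 0.754 of it in Ctrl, 22.4% ± 1.03 in Cu-Cys and 35.0% ± 2.04 in Cadict libraries (SD, n = 3 each). Glrx5 held 17.7% ± 1.08, 22.4% ± 0.308 and 24.6% ± 0.863 in the same order, with no overlap between groups. Nfs1 went from 9.44% ± 0.402 in Ctrl to 5.02% ± 1.09 in Cadict libraries, Isca1 from 11.8% ± 0.763 to 6.79% ± 0.475, and Isca2 from 12.2% ± 0.169 to 5.63% ± 0.649. The desulfurase and the A-type pair Isca1 and Isca2 therefore took up less of the set in Cadict libraries, and the late carrier Nfu1 and Glrx5 more. Iscu held 12.7 to 13.2% in Ctrl and 11.1 to 13.6% in Cadict libraries, which overlapped.

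**Figure D1:**
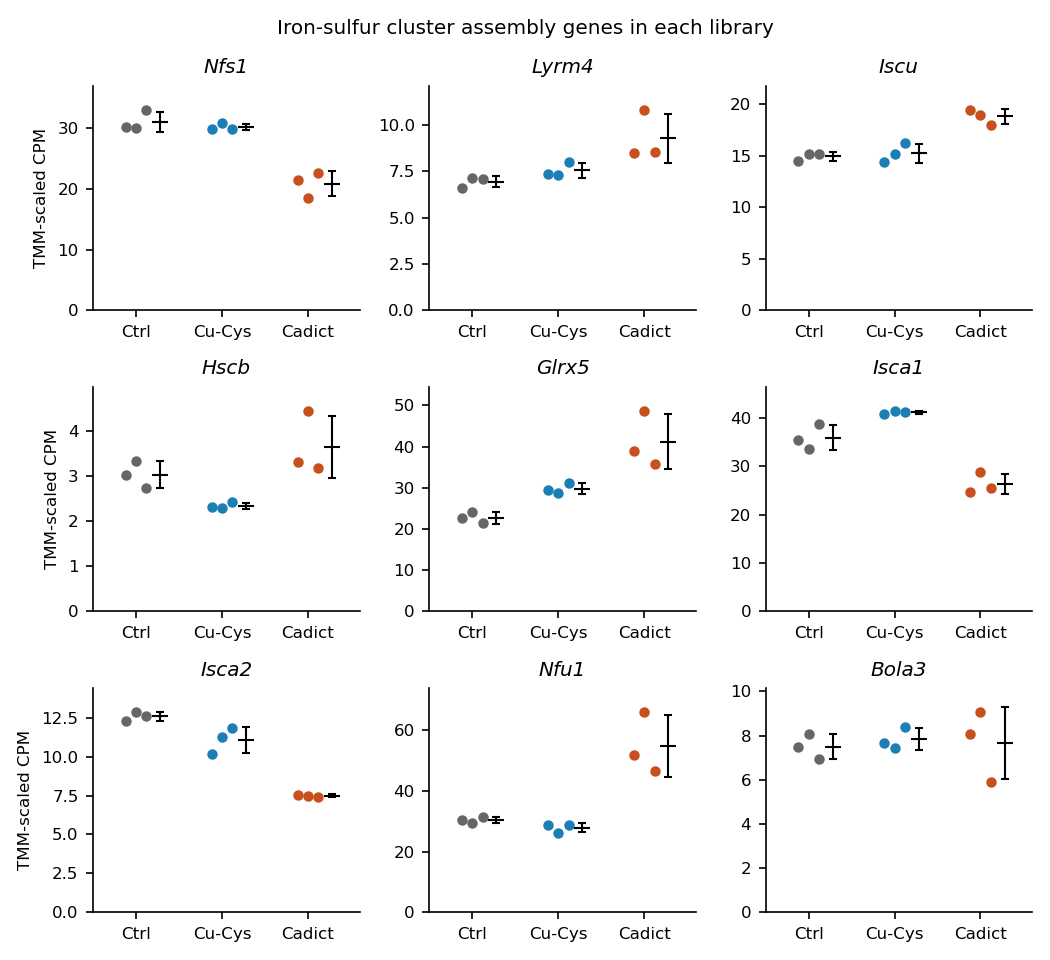
TMM-scaled CPM of each of the 9 assembly genes (vertical axis, from 0) in the 3 libraries of each group, with the mean and SD to the right of the points. Nfs1, Isca1 and Isca2 sit lowest in Cadict libraries, Glrx5 and Nfu1 highest, and Cadict replicate 2 is the highest Cadict library for Nfu1, Glrx5, Hscb, Lyrm4, Bola3 and Isca1.

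Cadict against Ctrl asks what the complete nanodrug did to these genes. Under TMM scaling Nfs1, Isca1 and Isca2 fell, Glrx5, Nfu1, Lyrm4 and Iscu rose, and Hscb and Bola3 did not pass the test. Counted in edgeR's quasi-likelihood test at an adjusted p of at most 0.05, that was 4 higher, against 40.6% of all genes tested, and 3 lower, against 47.1%. None of the 9 passed the stricter rule of the study's methods, a fold change of at least 2 with an adjusted p of at most 0.001, which 47.8% of all genes passed. The 7 members with an unadjusted p under 0.05 were the same ones that passed the adjusted test. DESeq2's test also put 0 members past that stricter rule. The median log2 fold change of the 9 was 0.26, beside -0.13 over all genes tested, and it was -0.69 beside -1.08 with library totals. Cadict replicate 2 weighed on that median, which was 0.098 without it. With bulk RNA, fewer cells of a kind and less RNA per cell cannot be told apart.

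At the first step of the pathway the desulfurase and its partner parted. Nfs1 measured 30.1, 30.04 and 33.0 CPM in the Ctrl libraries and 21.4, 18.6 and 22.6 CPM in the Cadict libraries, on TMM scaling. Every Cadict library lay below every Ctrl library, a log2 fold change of -0.57 ± 0.077 (SE; edgeR adjusted p = 3.8e-06), and the change was -0.45 with DESeq2 size factors and -1.53 with library totals. Lyrm4, at 6.62, 7.14 and 7.06 CPM in Ctrl, measured 8.50, 10.8 and 8.56 CPM in Cadict libraries. All Cadict libraries were above all Ctrl libraries on this scale, with a log2 fold change of 0.42 ± 0.11 (edgeR adjusted p = 0.00261), but with library totals the direction turned to -0.53 (edgeR adjusted p = 0.000203). Annotated exons of Nfs1 share 148 bases with Romo1 on the opposite strand and 256 bases with Gm28036 on the same strand, and those of Lyrm4 share 115 bases with Fars2 on the opposite strand. Whether counting used the strand is not given in the sources used here, so reads from these stretches may be misplaced.

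The scaffold Iscu measured 14.5, 15.2 and 15.2 CPM in Ctrl and 19.5, 19.0 and 18.1 CPM in Cadict libraries. The groups were separate, at a log2 fold change of 0.33 ± 0.077 (edgeR adjusted p = 0.000868), which turned to -0.62 with library totals (edgeR adjusted p = 1.11e-06). Hscb, which helps the chaperone release the cluster from the scaffold, was the most sparsely counted member, with 38 to 77 counts per library. It measured 3.03, 3.33 and 2.75 CPM in Ctrl and 3.31, 4.44 and 3.19 CPM in Cadict libraries. These values overlapped, and the log2 fold change of 0.26 did not pass (95% interval -0.091 to 0.61, edgeR adjusted p = 0.147). The outcome for Hscb turned on the scaling, with 0.38 and an adjusted p of 0.0412 in edgeR with DESeq2 size factors, -0.69 and 0.000747 with library totals, and it was 0.098 without Cadict replicate 2.

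Glrx5, the monothiol glutaredoxin that takes the cluster on, measured 22.6, 24.1 and 21.4 CPM in Ctrl and 39.0, 48.6 and 35.8 CPM in Cadict libraries. The lowest Cadict library was well above the highest Ctrl library. Its log2 fold change was 0.86 ± 0.095 (edgeR adjusted p = 3.95e-07), and with library totals it was -0.097 and did not pass (edgeR adjusted p = 0.305). The A-type proteins Isca1 and Isca2 went the other way. Isca1 measured 35.4, 33.7 and 38.8 CPM in Ctrl and 24.7, 28.8 and 25.6 CPM in Cadict libraries. Isca2 measured 12.3, 12.9 and 12.6 CPM in Ctrl and 7.56, 7.50 and 7.39 CPM in Cadict libraries. Neither gene overlapped between groups. The log2 fold change of Isca1 was -0.45 ± 0.074 (edgeR adjusted p = 3.4e-05), with -0.33 under DESeq2 size factors and -1.40 under library totals. That of Isca2 was -0.75 ± 0.095 (edgeR adjusted p = 2.09e-06), with -0.63 and -1.70 under the same alternatives. Annotated exons of Isca1 share 314 bases with the antisense gene Etohd2 and 115 bases with Gm49354 on the same strand.

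Of the pair that hands clusters to target enzymes, Nfu1 changed and Bola3 could not be called. Nfu1 measured 30.4, 29.3 and 31.3 CPM in Ctrl and 51.8, 66.0 and 46.4 CPM in Cadict libraries. Its log2 fold change of 0.85 ± 0.098 (edgeR adjusted p = 6.43e-07) became -0.10 with library totals (edgeR adjusted p = 0.281), the same loss as in Glrx5. Bola3 measured 7.48, 8.05 and 6.93 CPM in Ctrl and 8.07, 9.06 and 5.88 CPM in Cadict libraries. The Cadict libraries reached both above and below the Ctrl libraries, and the log2 fold change was 0.032 (95% interval -0.26 to 0.32, edgeR adjusted p = 0.83), against -0.92 with library totals (edgeR adjusted p = 4.62e-06).

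Read with library totals in place of TMM, no member passed as higher and 7 of the 9 passed as lower, beside 73.1% of all genes tested. In deposited TPM, which also divides by each library's whole, every Cadict library was below every Ctrl library for all 9 members, as it was for 79.8% of all genes tested. The summed TPM of the 9 genes was 407 to 410 in Ctrl, 372 to 396 in Cu-Cys and 206 to 217 in Cadict libraries. On TMM scaling their sum was 165 ± 3.48 CPM in Ctrl, 173 ± 4.07 in Cu-Cys and 190 ± 20.3 in Cadict libraries (SD, n = 3). Nfs1, Isca1 and Isca2 were lower under all 3 scalings, whereas the higher values of Glrx5, Nfu1, Lyrm4 and Iscu held only relative to the bulk of the genes. A change of scaling moves all genes by nearly the same amount, here -0.95 in the median for library totals and 0.12 for DESeq2 size factors. Members lower by more than 0.12 with TMM thus stay lower, and rises smaller than 0.95 turn. The contrast therefore adds nothing beyond the TMM values.

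**Figure D2:**
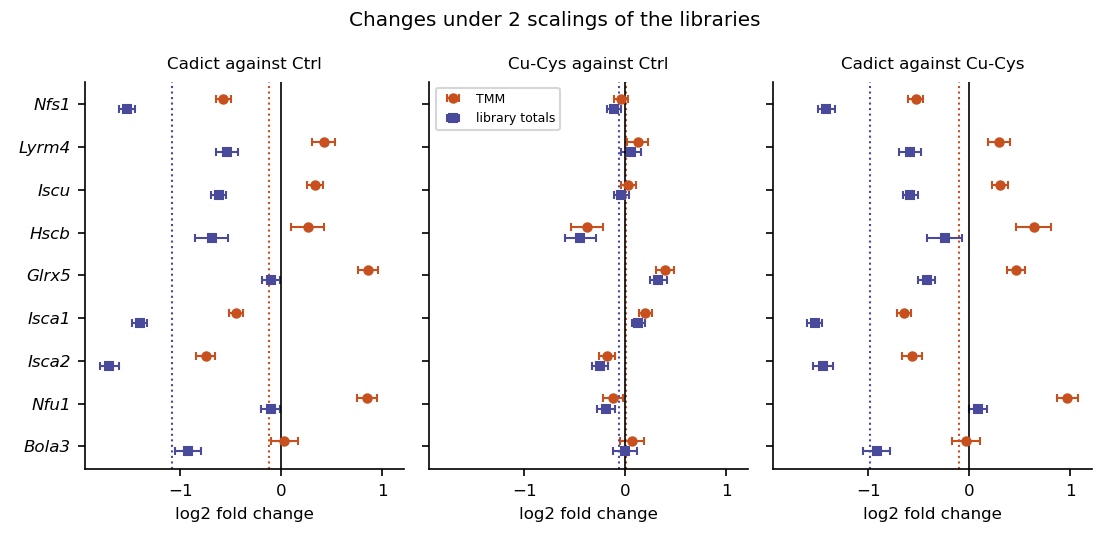
Log2 fold change (horizontal axis) of each assembly gene in the 3 comparisons with TMM (circles) and with library totals (squares), bars giving ± 1 SE and dotted lines the median of all genes tested under each scaling. Nfs1, Isca1 and Isca2 lie below 0 under both scalings in the 2 comparisons with Cadict, and Glrx5 is above 0 under both in Cu-Cys against Ctrl.

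Cu-Cys against Ctrl asks what copper and cystine did without glucose oxidase and the peptide. The changes were small. Glrx5 and Isca1, 2 of the 9, rose, against 22.6% of all genes tested, and 0 members fell, against 22.4%. By the stricter rule 0 members passed, against 1.64% of all genes. Both edgeR and DESeq2 called 0 members lower, although Hscb and Isca2 were lower at an unadjusted p under 0.05 in edgeR. The members' median log2 fold change was 0.031 beside 0.0067 over all genes tested, and -0.038 beside -0.061 with library totals. This comparison and that of Cadict against Ctrl share their Ctrl libraries.

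Glrx5 measured 29.4, 28.8 and 31.2 CPM in Cu-Cys libraries, all above the 21.4 to 24.1 CPM of the Ctrl libraries. Its log2 fold change was 0.40 ± 0.092 (edgeR adjusted p = 0.00288), and it remained past the test with library totals at 0.33 (edgeR adjusted p = 0.00645). Isca1 measured 40.9, 41.5 and 41.3 CPM in Cu-Cys libraries, above the 33.7 to 38.8 CPM of Ctrl libraries. Its log2 fold change of 0.20 ± 0.066 (edgeR adjusted p = 0.0236) did not pass with library totals (0.13, edgeR adjusted p = 0.118) or without any one of Ctrl replicates 1 and 2 and the 3 Cu-Cys libraries (edgeR adjusted p = 0.0575 to 0.124).

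Hscb measured 2.31, 2.29 and 2.42 CPM in Cu-Cys libraries and Isca2 10.2, 11.2 and 11.8 CPM. In CPM, 6 of the 9 members had no overlap between Cu-Cys and Ctrl libraries, a count without a share of all genes. Hscb and Isca2 were among them and lay below their Ctrl libraries. Neither gene passed, with a log2 fold change of -0.38 ± 0.16 for Hscb (edgeR adjusted p = 0.0633) and -0.18 ± 0.079 for Isca2 (edgeR adjusted p = 0.0696). With library totals both passed, at -0.45 and an edgeR adjusted p of 0.0294 for Hscb, and -0.25 and 0.0174 for Isca2. Both also passed when genes needed at least 10 counts in every library (edgeR adjusted p = 0.0422 for Hscb and 0.0413 for Isca2). Without Cadict replicate 2 in the shared fit, Hscb passed at -0.38 (edgeR adjusted p = 0.0444). The 95% intervals of the other 5 log2 fold changes were -0.19 to 0.10 for Nfs1, -0.097 to 0.34 for Lyrm4, -0.12 to 0.19 for Iscu, -0.33 to 0.089 for Nfu1 and -0.19 to 0.32 for Bola3. A doubling or a halving lies outside each of these intervals.

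Cadict against Cu-Cys asks what the complete nanodrug adds to copper and cystine. Nfu1, Hscb, Glrx5, Iscu and Lyrm4 rose under TMM scaling and, except for Nfu1 at 0.085 (edgeR adjusted p = 0.391), were below 0 with library totals, while Isca1, Isca2 and Nfs1 fell under every scaling. That was 5 higher, against 40.3% of all genes tested, and 3 lower, against 45.6%. At the stricter rule 0 members passed in edgeR, against 42.2% of all genes, and DESeq2 called 1. The 8 members with an unadjusted p under 0.05 were the same ones that passed the adjusted test. The median of the members was 0.30 beside -0.099 over all genes tested, and 0.17 without Cadict replicate 2.

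Nfu1 showed the widest gap, with 28.7, 26.3 and 28.6 CPM in Cu-Cys libraries and 46.4 to 66.0 CPM in Cadict libraries, a log2 fold change of 0.97 ± 0.099 (edgeR adjusted p = 1.68e-07). Of the other members that rose, Hscb stood at 0.64 ± 0.17 (edgeR adjusted p = 0.00308), which was 0.47 without Cadict replicate 2 and -0.24 with library totals. Glrx5 at 0.46 ± 0.093 (edgeR adjusted p = 0.000248) was -0.42 with library totals. Iscu stood at 14.4, 15.2 and 16.2 CPM in Cu-Cys libraries, all below its Cadict libraries, and its 0.30 ± 0.078 (edgeR adjusted p = 0.00199) was -0.58 with library totals. Lyrm4, at 7.34, 7.32 and 8.03 CPM in Cu-Cys libraries, gave 0.30 ± 0.11 (edgeR adjusted p = 0.0223). That call for Lyrm4 was lost without Cadict replicate 2 (edgeR adjusted p = 0.187), Cu-Cys replicate 1 (0.054) or Cu-Cys replicate 2 (0.0646), with no filter on low counts (0.121), and turned to -0.59 with library totals.

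The 3 members that fell were also separate from the Cu-Cys libraries. Isca1 had a log2 fold change of -0.65 ± 0.073 (edgeR adjusted p = 5.89e-07), Isca2 of -0.57 ± 0.098 (edgeR adjusted p = 5.93e-05) and Nfs1, at 29.8, 30.8 and 29.9 CPM in Cu-Cys libraries, of -0.53 ± 0.077 (edgeR adjusted p = 1.02e-05). With library totals these changes were -1.53 for Isca1, -1.45 for Isca2 and -1.41 for Nfs1. Bola3 measured 7.66, 7.45 and 8.39 CPM in Cu-Cys libraries, inside the spread of its Cadict libraries, and was not called under TMM scaling at -0.033 (95% interval -0.32 to 0.26, edgeR adjusted p = 0.823). With library totals it passed as lower at -0.92 (edgeR adjusted p = 5.25e-06), and in deposited TPM its groups did not overlap.

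Ratios of partner genes within a library put their balance on a footing that no scaling between libraries can move. With 3 libraries against 3, the exact two-sided permutation test cannot give a p below 0.1, so none of the 18 differences tested (6 ratios in 3 comparisons) could pass, and sizes and overlap are given instead. There were 0.214 to 0.238 counts of Lyrm4 per count of Nfs1 in Ctrl libraries, 0.238 to 0.269 in Cu-Cys and 0.379 to 0.582 in Cadict libraries. In log2 the Lyrm4 to Nfs1 ratio was higher by 0.99 in Cadict than in Ctrl libraries, without overlap (exact permutation p = 0.1, the smallest possible), and by 0.79 without Cadict replicate 2. Counts of Iscu per count of Nfs1 were 0.462 to 0.504 in Ctrl, 0.483 to 0.544 in Cu-Cys and 0.799 to 1.02 in Cadict libraries, a log2 difference of 0.91 between Cadict and Ctrl. Relative to the desulfurase transcript, the partner and the scaffold were thus both more abundant in every Cadict library, while the Cu-Cys libraries overlapped Ctrl.

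Hscb and its chaperone gene showed the widest shift. Hspa9, the mitochondrial heat shock protein of the same family as cytosolic Hsp70, was far more abundant, so the ratio of Hscb to Hspa9 counts was 0.00438 to 0.00546 in Ctrl, 0.00281 to 0.00302 in Cu-Cys and 0.000817 to 0.00116 in Cadict libraries. The log2 difference from Ctrl was -0.77 in Cu-Cys and -2.42 in Cadict libraries, with no overlap in either. In Cadict libraries Hspa9 rose by 2.67 under TMM scaling (edgeR adjusted p = 2.61e-16). Hscb itself did not pass there, at 0.26 (edgeR adjusted p = 0.147). Counts of Bola3 per count of Nfu1 were 0.221 to 0.275 in Ctrl and 0.127 to 0.156 in Cadict libraries, a log2 difference of -0.82, which was -0.52 in deposited TPM. Glrx5 to Iscu was higher than in Ctrl by 0.37 in Cu-Cys and 0.52 in Cadict libraries, and Isca1 to Isca2 by 0.39 and 0.30, each without overlap.

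**Figure D3:**
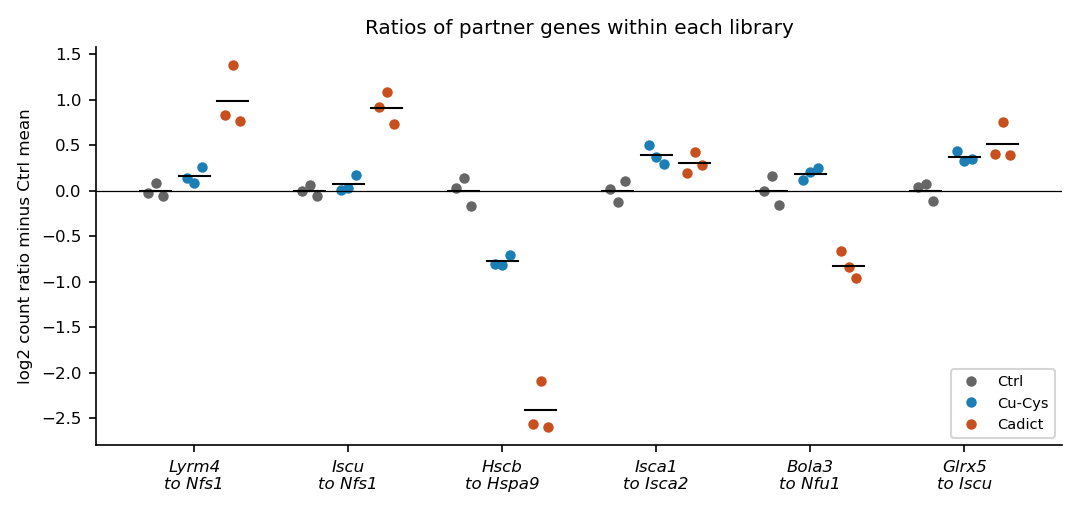
Log2 ratio of the expected counts of 2 partner genes within each library, minus the Ctrl mean (vertical axis), for 6 pairs, with points for libraries and bars for group means. Lyrm4 to Nfs1 and Iscu to Nfs1 are higher and Hscb to Hspa9 and Bola3 to Nfu1 lower in all 3 Cadict libraries than in any Ctrl library.

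Promoter sequence of the members was looked at too. Nfs1, Isca1 and Isca2 were the 3 of 9 called lower in Cadict against Ctrl, beside 47.1% of all genes tested. A joint fall is therefore not read from them. The RefSeq promoter table (GRCm38.p6) holds 7 of the 9 genes, all but Iscu and Hscb, and the 250 bases before each start were searched on both strands for 13 motifs, chosen after the members' values were known. The ETS core CCGGAAG was found in 3 of the 7, Nfs1, Isca1 and Isca2, and in 6.91% of all 32851 promoters. The windows around these matches are shown because they belong to the 3 members that were lower under every scaling. They run 5′ to 3′ on the strand of the gene, with the core in capitals, in its reverse complement for the first 2.
Nfs1, chr2:156144183-156144212, minus strand: ccgtgggatcgCTTCCGGagcacagcgcag
Isca1, chr13:59769987-59770016, minus strand: ccgtgtccccaCTTCCGGggggtctgtcgt
Isca2, chr12:84773230-84773259, plus strand: tctcccctcctCCGGAAGcccaggctaggc

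The core begins 15 bases before the annotated start in Nfs1, 216 in Isca1 and 29 in Isca2. Glrx5, the member that was higher in both treatments under TMM scaling and in Cu-Cys also with library totals, holds 4 CCAAT boxes (CCAAT or its reverse complement), and its 250 bases are shown for their spacing, with the boxes in capitals.
Glrx5, chr12:105032368-105032617, plus strand: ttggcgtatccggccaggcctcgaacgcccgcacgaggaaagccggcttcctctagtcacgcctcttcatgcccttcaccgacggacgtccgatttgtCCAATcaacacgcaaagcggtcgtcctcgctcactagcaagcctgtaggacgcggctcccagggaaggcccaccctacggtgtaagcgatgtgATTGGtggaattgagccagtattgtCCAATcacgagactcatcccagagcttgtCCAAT

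A CCAAT box stood in 5 of the 7 members and in 33.8% of all promoters, so it does not set Glrx5 apart. Isca1 and Isca2, which fell in Cadict libraries under every scaling, hold it too. Of the other 11 motifs, the GC box GGGCGG was found in 4 members (32.7% of all promoters), the antioxidant core TGACNNNGC in 2 (10.2%), and the metal response core TGCACNC in 1, Bola3 (10.4%). The NRF1 motif was found in Isca1 alone (3.74%), and TGACG, which is contained in the CRE and can overlap the antioxidant core, in 1 (17.8%). No member held the E-box CACGTG (6.02%), the CRE TGACGTCA (1.55%), the heat shock pair GAANNTTC (6.69%), the amino acid response motif TGATGNAA (3.45%), the YY1 motif (0.301%) or the serum response element (1.47%). A member was counted if any of its promoters matched (Bola3 has 3), whereas the shares are of single promoters. No share was taken among genes that fell in Cadict, so whether the ETS core sets Nfs1, Isca1 and Isca2 apart was not tested. A match describes letters in a window and was not tested as a binding site.

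The rest of the machinery, in lists with more genes, moved over a wider range than the 9 genes. Of 13 other mitochondrial assembly genes, 8 were higher and 5 lower in Cadict than in Ctrl libraries under TMM scaling, where 40.6% of all genes tested were higher and 47.1% lower. By sign alone, 4 and 5 of them stayed so under all 3 scalings, a count without a share of all genes. Among the 4, Fdx2 at 0.19 (edgeR adjusted p = 0.249) and Ndufab1 at 0.0002 (edgeR adjusted p = 0.998) did not pass with library totals. The list's median log2 fold change was 0.46, beside -0.13 over all genes tested, and -0.49 beside -1.08 with library totals. Hspa9, at 613 ± 12.8 CPM in Ctrl, 809 ± 7.30 in Cu-Cys and 3898 ± 62.4 in Cadict libraries (SD, n = 3), rose in Cadict against Ctrl by 2.67 ± 0.047 in log2 (edgeR adjusted p = 2.61e-16), or 1.72 with library totals. Grpel1, the exchange factor that resets Hspa9, rose by 2.26 ± 0.081 (edgeR adjusted p = 4.4e-13), or 1.31 with library totals. Its relative Grpel2 was higher by 0.41 ± 0.057 in Cu-Cys (edgeR adjusted p = 4.39e-05), or 0.35 with library totals. Iba57, which works with Isca1 and Isca2 on cubane-type clusters, went from 5.71 ± 1.06 CPM in Ctrl to 0.996 ± 0.275 CPM in Cadict libraries, a log2 fold change of -2.51 ± 0.23 (edgeR adjusted p = 4.18e-08), with -3.46 under library totals. Hspa9 and Grpel1 therefore rose in Cadict while Iba57, Isca1 and Isca2 were lower, under each scaling. Grpel2 was at 0.88 in Cadict against Ctrl with TMM (edgeR adjusted p = 7.52e-10) but at -0.071 with library totals (edgeR adjusted p = 0.275).

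In the cytosolic assembly machinery, which builds clusters for proteins outside mitochondria, 6 of 11 genes were higher (40.6% of all genes tested) and 4 lower (47.1%) in Cadict against Ctrl under TMM scaling. By sign alone, 3 and 4 of these stayed so under all 3 scalings, again without a share of all genes. The median of 0.72 became -0.24 with library totals. Ciao2b, of the complex that targets clusters to their proteins, rose by 1.73 ± 0.079 (edgeR adjusted p = 7.47e-12), or 0.78 with library totals. Mms19, of the same complex, fell at -1.33 ± 0.078 (edgeR adjusted p = 1.52e-10), or -2.29 with library totals, so members of 1 complex moved apart. Bola2, a partner of the cytosolic glutaredoxin, was at 1.44 ± 0.27 (edgeR adjusted p = 0.000127), but at 0.49 with library totals it did not pass (edgeR adjusted p = 0.0902). Nubp1, part of the cytosolic scaffold, was higher in Cu-Cys by 0.45 ± 0.063 (edgeR adjusted p = 5.04e-05), or 0.38 with library totals, and lower in Cadict at -0.71 ± 0.072 (edgeR adjusted p = 1.52e-07), or -1.66. Stretches of 50 bases that also occur in other annotated transcripts make up 27.9% of Nubp1, 14.2% of Isca1, 12.1% of Iscu, 10.4% of Grpel1 and 8.53% of Nfs1, so counts of these genes may be shared with copies.

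Genes whose proteins hold the clusters were followed in the same fit. Of 16 mitochondrial ones, 10 were higher (40.6% of all genes tested) and 6 lower (47.1%) in Cadict against Ctrl under TMM scaling, with a median of 0.45, or -0.51 with library totals. Within respiratory complex I, which passes electrons along a chain of clusters, Ndufv1 went from 100.4 ± 1.95 CPM in Ctrl to 26.2 ± 1.84 CPM in Cadict libraries (log2 fold change -1.94 ± 0.066, edgeR adjusted p = 2.66e-13, and -2.89 with library totals). Ndufs8 of the same complex went from 28.6 ± 1.99 to 77.9 ± 15.3 CPM (1.45 ± 0.11, edgeR adjusted p = 2.35e-09, and 0.49 with library totals). Etfdh, which feeds electrons from fatty acid oxidation into the respiratory chain, fell in both treatments, at -0.36 ± 0.065 in Cu-Cys (edgeR adjusted p = 0.000431) and -1.60 ± 0.079 in Cadict (edgeR adjusted p = 1.85e-11), and was lower still with library totals. Lias, the lipoyl synthase that Nfu1 and Bola3 serve, fell in Cadict at -1.05 ± 0.075 (edgeR adjusted p = 1.72e-09), or -2.01 with library totals, and did not pass in Cu-Cys at 0.13 (edgeR adjusted p = 0.0993). Fdx1, the ferredoxin known for its part in cuproptosis, was higher by 0.93 ± 0.11 under TMM scaling (edgeR adjusted p = 1.51e-06) and at -0.029 with library totals (edgeR adjusted p = 0.803). The study reports less FDX1 and LIAS protein after Cadict, reversed by an inhibitor of cuproptosis, whereas the values here are of RNA. Nfu1 and its client Lias thus had opposite signs under TMM scaling, and Lias was the lower of the pair under library totals.

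**Figure D4:**
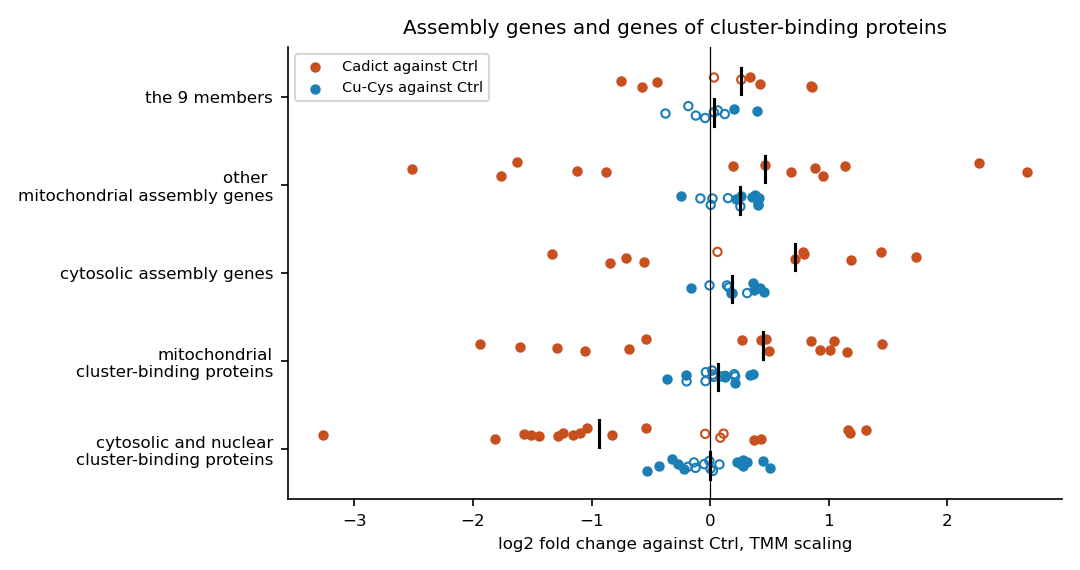
Log2 fold change against Ctrl under TMM scaling (horizontal axis) for the 9 members and the 4 other lists, with filled points for genes at an edgeR adjusted p of at most 0.05, open points for the rest and black bars for medians. The members stay between -0.75 and 0.86, while genes of the other lists run from -3.27 to 2.67 in Cadict against Ctrl.

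Cytosolic and nuclear cluster-binding proteins, which include enzymes of DNA replication and repair, were the list with the lowest median in Cadict against Ctrl, -0.94 under TMM scaling and -1.89 with library totals. Of 20 tested, 12 passed as lower under TMM scaling, as did 47.1% of all genes tested. These 12 were below 0 under all 3 scalings, for which no share of all genes was taken. A further 5 passed as higher under TMM scaling (40.6% of all genes) and 3 did not pass, and Dpyd and Rsad2, with 3 and 4 counts over all 9 libraries, were not tested. Dna2, a nuclease and helicase, went from 23.0 ± 1.42 CPM in Ctrl to 2.39 ± 0.348 CPM in Cadict libraries, a log2 fold change of -3.27 ± 0.13 (edgeR adjusted p = 1.66e-12). The helicases Ddx11 at -1.81 ± 0.10 (edgeR adjusted p = 1.08e-10) and Brip1 at -1.57 ± 0.085 (edgeR adjusted p = 5.88e-11) fell too. Mutyh, a glycosylase of base excision repair, showed the largest change of the list in Cu-Cys, at -0.53 ± 0.11 (edgeR adjusted p = 0.00148), and stood at -1.04 ± 0.14 in Cadict (edgeR adjusted p = 4.01e-06). All 4 were lower still with library totals.

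The same lists had medians of -0.0021 to 0.25 in Cu-Cys against Ctrl, beside 0.0067 over all genes tested. Among the other mitochondrial assembly genes 7 of 13 were higher and 1 lower, among cytosolic assembly genes 6 and 1 of 11, among mitochondrial cluster-binding proteins 4 and 2 of 16, and among the cytosolic and nuclear ones 7 and 5 of 20, where 22.6% of all genes tested were higher and 22.4% lower. Set against Cu-Cys, the Cadict libraries gave 7 and 5 of 13, 6 and 5 of 11, 10 and 6 of 16, and 5 and 12 of 20 in the same order under TMM scaling, where 40.3% of all genes tested were higher and 45.6% lower.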

How the data were processed

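RNA from 9 libraries of MC38 cells was measured, 3 each of Ctrl, Cu-Cys and Cadict. The authors deposited 1 table with, for each gene and library, an expected count, an FPKM value, a TPM value and a signal value, the last being the count divided by a size factor per library. The submitters' processing notes name HISAT2 2.1.0, Bowtie2 2.3.4.3 and RSEM 1.3.1, and the builds GRCh38.p13 and GRCm39 without their roles. The methods name TRIzol and an Illumina instrument, the labels a column kit and DNA nanoballs. Columns named CC were matched to Cu-Cys by initials and CCGE to Cadict by inference from its parts. Columns of group means were not used.

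After rounding, the counts went into edgeR 4.0.16 under R 4.3.3 (filterByExpr, TMM, 1 quasi-likelihood fit of the 3 groups, Benjamini-Hochberg adjustment over 11949 genes). A count of 0 allows up to 3 counts, and intervals are 95%. Alternatives were DESeq2 size factors, library totals, other filters, a replicate block, DESeq2 1.42.0, limma 3.58.1 on log2 of deposited values, and leaving out each library. The script was tested on simulated data with few genes changed, balanced up and down, which does not test the choice of scaling. The members and lists were chosen with earlier results of these data known. Named besides the members are, from each other list, the 3 genes that moved most in Cadict and the 1 that moved most in Cu-Cys against Ctrl among those that passed with a mean of at least 1 CPM, and Fdx1, Lias and Hspa9. A gene of the lists is not reported here. Replicates differed by more than sampling noise (chi-square 1.88 to 23.1 per degree of freedom). The pairs of Cadict replicate 2 with replicates 1 and 3 stood at 14.7 and 23.1, and the other pairs at 1.88 to 4.53. Exon overlaps and shared stretches come from GENCODE M21 (GRCm38).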

Additional observations from a re-analysis of the deposited data

How the results depend on the processing

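The call of Nfs1, Isca1 and Isca2 as lower in Cadict against Ctrl and against Cu-Cys kept its direction and its side of the threshold under every alternative run. Library totals move all genes down in Cadict by nearly the same amount, so under them a gene lower with TMM stays lower. The higher values of Glrx5, Nfu1, Lyrm4 and Iscu in Cadict held with TMM and DESeq2 size factors and with any library left out, except for Lyrm4 against Cu-Cys, and did not hold where values were taken relative to library totals, as FPKM and TPM are by construction. The 38 to 77 counts of Hscb per library, the lowest of the members, limit what can be said of it. The cause of the changes below was not tested. With library totals, 73.1% of all genes tested passed as lower in Cadict against Ctrl. The median log2 fold change of all genes tested was then -1.08, and it was -0.98 in Cadict against Cu-Cys. Shares of all genes were not taken for the other counts under these settings, so the counts below are not read as results about these genes.

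With library totals, Cadict against Ctrl gave 0 members higher and 7 lower, 3 past the stricter rule, 9 other list genes higher and 43 lower (29 and 27 with TMM) and a member median of -0.69, with log2 fold changes of -0.53 for Lyrm4, -0.62 for Iscu, -0.69 for Hscb, -0.097 for Glrx5, -0.10 for Nfu1 and -0.92 for Bola3. Cu-Cys against Ctrl gave 1 member higher and 2 lower and a median of -0.038, with -0.038 for Iscu and -0.0037 for Bola3. Cadict against Cu-Cys gave 0 members higher and 7 lower, 3 past the stricter rule, 5 other list genes higher and 46 lower (28 and 28 with TMM) and a median of -0.59, with -0.59 for Lyrm4, -0.58 for Iscu, -0.24 for Hscb, -0.42 for Glrx5 and -0.92 for Bola3.

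On log2(TPM + 1) with limma, Cadict against Ctrl gave 0 members higher and 9 lower, 3 past the stricter rule, 3 other list genes higher and 49 lower and a median of -0.97, with -0.81 for Lyrm4, -0.97 for Iscu, -0.98 for Hscb, -0.47 for Glrx5, -0.48 for Nfu1 and -0.93 for Bola3. In Cu-Cys against Ctrl this gave 1 member higher and 3 lower, 10 other list genes higher and 14 lower and a median of -0.12, with -0.021 for Lyrm4, -0.12 for Iscu and -0.044 for Bola3. In Cadict against Cu-Cys it gave 0 members higher and 9 lower, 3 past the stricter rule, 3 other list genes higher and 54 lower and a median of -0.85, with -0.79 for Lyrm4, -0.85 for Iscu, -0.53 for Hscb, -0.71 for Glrx5, -0.21 for Nfu1 and -0.88 for Bola3.

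On log2(FPKM + 1) with limma, Cadict against Ctrl gave 0 members higher and 7 lower, 3 past the stricter rule, 9 other list genes higher and 43 lower and a median of -0.62, with -0.48 for Lyrm4, -0.62 for Iscu, -0.64 for Hscb, -0.13 for Glrx5, -0.14 for Nfu1 and -0.59 for Bola3. The counts were the same with a pseudocount of 0.1, where the median was -0.65, with -0.55 for Lyrm4, -0.64 for Iscu, -0.73 for Hscb, -0.13 for Glrx5, -0.14 for Nfu1 and -0.65 for Bola3. Cu-Cys against Ctrl gave 1 member higher and 2 lower with either pseudocount, and 13 other list genes higher, a median of -0.044 and -0.044 for Iscu with 1, or 12, -0.045 and -0.045 with 0.1. Cadict against Cu-Cys gave 0 members higher and 8 lower, 3 past the stricter rule, and 5 other list genes higher and 47 lower with either. Its median was -0.58, with -0.52 for Lyrm4, -0.58 for Iscu, -0.27 for Hscb, -0.44 for Glrx5 and -0.61 for Bola3 with a pseudocount of 1, and -0.60, with -0.60 for Lyrm4, -0.60 for Iscu, -0.31 for Hscb, -0.45 for Glrx5 and -0.68 for Bola3 with 0.1.

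The median of Cadict against Ctrl was 0.38 with DESeq2 size factors and with DESeq2's test, 0.34 with limma on log2 of the deposited signal values plus 1, 0.18 with no filter on low counts and 0.20 with at least 10 counts in every library. In Cadict against Cu-Cys it was 0.39 with DESeq2 size factors, 0.38 with DESeq2's test and 0.20 with no filter, and 1 member passed the stricter rule with DESeq2 size factors, with DESeq2's test and with the signal values. Bola3, near 0 where values were not taken relative to library totals, changed sign to -0.049 with no filter and -0.030 with at least 10 counts in Cadict against Ctrl, and to 0.059 with DESeq2 size factors, 0.054 with DESeq2's test and 0.013 with the signal values in Cadict against Cu-Cys. With at least 10 counts in every library, 2 members were lower in Cu-Cys against Ctrl.

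Leaving out 1 library at a time, the median of the members ran from 0.098 to 0.35 in Cadict against Ctrl and from 0.17 to 0.33 in Cadict against Cu-Cys. In Cu-Cys against Ctrl 1 to 2 members were higher and 0 to 1 lower, and in Cadict against Cu-Cys 0 to 1 passed the stricter rule. Log2 fold changes that changed sign ran from -0.10 to 0.19 for Bola3 in Cadict against Ctrl, from -0.17 to 0.12 for Bola3 in Cadict against Cu-Cys, and from -0.065 to 0.0034 for Nfs1 and from -0.014 to 0.065 for Iscu in Cu-Cys against Ctrl.

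Libraries share replicate numbers across groups, but same-numbered libraries did not deviate together (correlations of -0.16 to 0.12 over 9706 genes), and a library correlated best with its own number in 7 of 18 cases, so the numbers were not taken as pairs. The replicate block left the members' calls as they were without it, at 4 up and 3 down for Cadict against Ctrl, 2 and 0 for Cu-Cys against Ctrl, and 5 and 3 for Cadict against Cu-Cys.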
